A study of Mus musculus with 27 samples.

Results

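The genes described here are 34 mouse genes of integrin adhesion, matched by symbol among 55401 genes of the deposited table: 10 integrin subunits and 24 proteins that activate integrins, tie them to actin or signal from adhesion sites. Their mRNA was measured by poly-A RNA sequencing in 4T1 cells, a mouse mammary carcinoma line that metastasises in mice, in 27 libraries that form 9 groups of 3. The knockout arm held parental 4T1 cells of wild-type genotype and 6 CRISPR-Cas9 clones, 2 for each of 3 genes of mitochondrial fission. Clones gs1B8 and gs2_B4 were knockouts of Drp1 (gene Dnm1l), gs1_B11 and gs2_F6 of Fis1, and gs1_B4 and gs1_C8 of Mff. In the drug arm, 4T1 cells were kept for 3 days with leflunomide, an inhibitor of pyrimidine synthesis, or with its vehicle DMSO. Each clone is 1 cell line, so a change seen in 1 clone cannot be told apart from a property of that clone. Which code is the first or second clone in the labels, and whether the 3 libraries of a group came from separate cultures, is not stated. The p-values therefore cover the variation among these libraries, which may be technical.

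Integrins are receptors made of an alpha and a beta subunit that bind extracellular matrix outside the cell and actin inside it. Talins and kindlins bind the beta tail and switch integrins on, vinculin strengthens the talin link to actin, and focal adhesion kinase, Src and their scaffolds signal from the site. In mammary epithelium, beta 1 and alpha 6 beta 4 integrins hold cells to the basement membrane, and integrin adhesion takes part in tumour cell migration and invasion.

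Totals per library lay between 20715428 and 31295937 counts for the parental cells and clones, and between 18492020 and 24658747 for DMSO and leflunomide. DMSO replicate 3 stood apart: the 45S precursor of ribosomal RNA took 23.2% of it, while the share elsewhere was 1.60% to 5.72%. Dnm1l mRNA was at 31.2% and 18.7% of the parental level in the Drp1 clones, Fis1 at 44.3% and 36% in the Fis1 clones, and Mff at 54.4% and 49.6% in the Mff clones. Of 10 mammary epithelial markers, 7 or 8 reached 1 CPM (a count scaled to its library's size) in each group, and Krt5, a basal keratin, had 0 counts in 5 groups. Leukocyte markers summed to between 4.33 and 15.96 CPM with Cd3e and Adgre1 at 0 in every group, endothelial markers to at most 0.867 CPM, and fibroblast markers to between 2.31 and 8.53 CPM with Col3a1, Lum and Thy1 at 0. Platelet markers summed to 4.65 to 7.70 CPM in parental cells, 24.1 to 31.4 in gs2_B4 and 10.75 to 19.9 in gs2_F6, with Gp9 at 0 in every group. These sums came almost wholly from Ppbp, the only platelet marker that reached 1 CPM in any group.

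Per kilobase of exon, the beta 1 subunit gene Itgb1 had the highest level of the 34 in parental cells, 509 CPM per kb, followed by Flna at 143 and Itga3 at 138. The 5 beta subunits summed to 537 CPM per kb and the 5 alpha subunits to 229. Of the alpha subunits Itga6 (35.7), Itga2 (33.5) and Itgav (18.1) followed Itga3, and Itga5, which with beta 1 forms the classical fibronectin receptor, had 3.28 CPM per kb. Itgb4 and Itgb5 had 11.4 CPM per kb each, Itgb6 had 4.93 and Itgb3 only 0.131. Lpxn and Tns1 were close to the detection limit, at 0.0562 and 0.0100 CPM per kb. Lpxn had 92 counts over all 27 libraries and was not tested, which leaves 33 members tested in the knockout arm. DMSO cells had Itgb1, Itga3 and Flna at 454, 130 and 116 CPM per kb, again the leading 3, and were not compared with parental cells by a test.

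**Figure D1:**
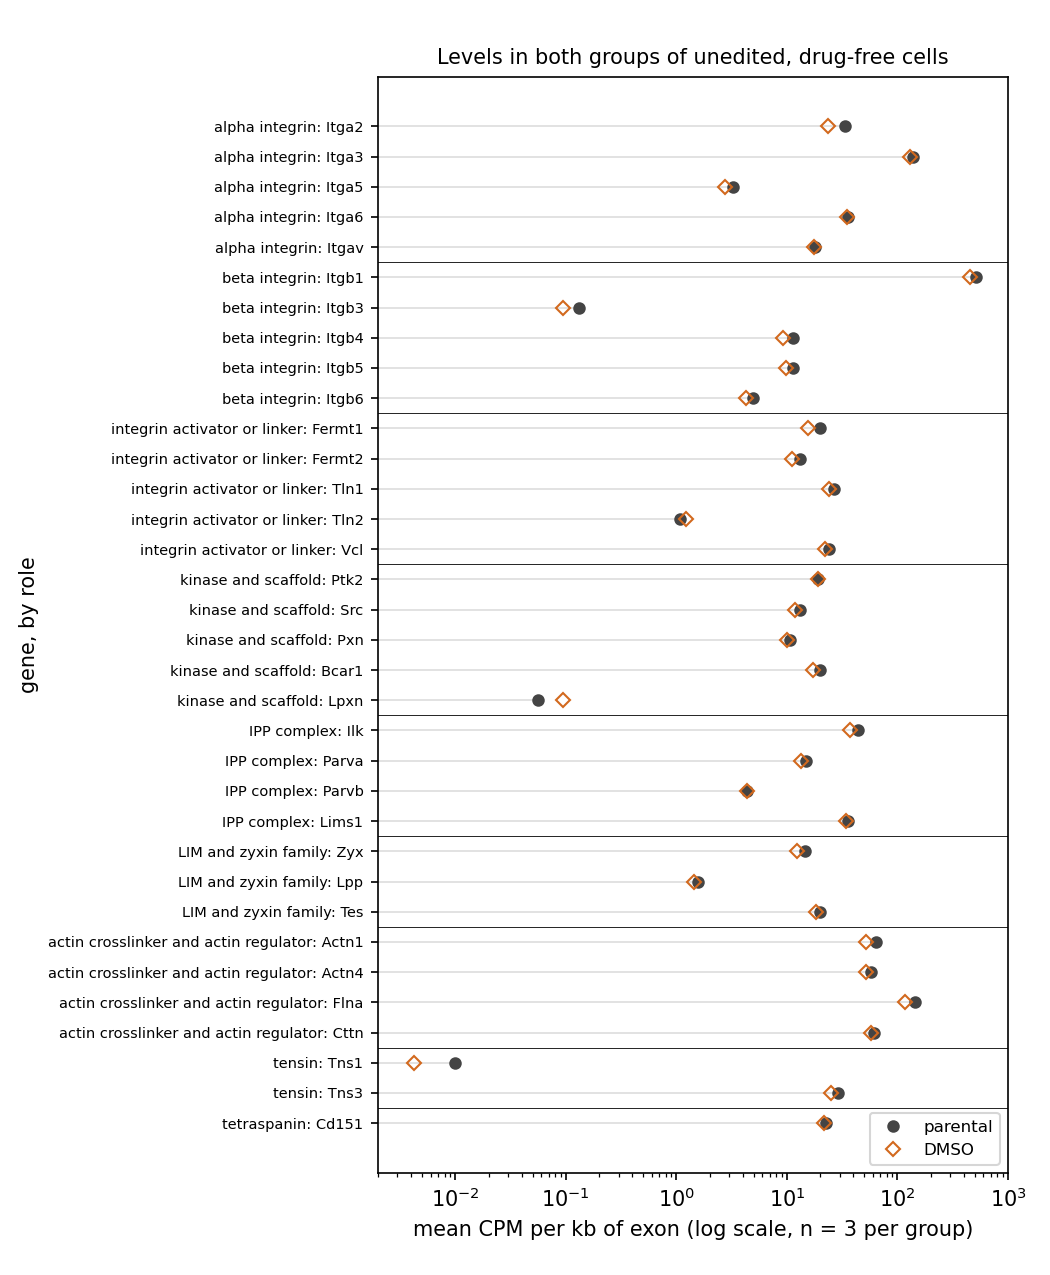
Mean level of the 34 genes in parental and DMSO cells, in CPM per kb of exon on a log axis, ordered by role (n = 3 libraries per group). Itgb1 stands highest at 509 CPM per kb in parental cells, and Itgb3, Lpxn and Tns1 lie below 1.

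Against parental cells, most of the adhesion genes changed in 4 of the 6 clones, and more of them rose than fell. A gene is called higher or lower at an adjusted p under 0.05 by edgeR's quasi-likelihood test over 13940 genes. In the Drp1 clone gs1B8, 12 members rose, as did 12.1% of all genes tested, and 4 fell, as did 17.4% (29.5% called in all). In gs2_B4, 18 rose (24.1% of all genes) and 7 fell (26.3%, with 50.3% called in all). In the Fis1 clones, 20 rose and 6 fell in gs1_B11 (21.4% and 25.9% of all genes, 47.3% in all), and 6 rose and 4 fell in gs2_F6 (13.1% and 18.2%, 31.3% in all). In the Mff clones, 20 rose and 8 fell in gs1_B4 (20.9% and 26.8%, 47.7% in all), and 10 rose and 9 fell in gs1_C8 (21.5% and 25.2%, 46.7% in all). Without parental replicate 2, those lower in gs1_C8 were 5. The share of tested members called was 48.5% in gs1B8, 75.8% in gs2_B4, 78.8% in gs1_B11 and 84.8% in gs1_B4, all above the share of all genes, 57.6% in gs1_C8, and 30.3% in gs2_F6, next to that of all genes. The members are abundant, with a median of 122 CPM in parental cells against 19.1 CPM for all genes tested, and the part of abundance in these shares was not tested. Their median log2 fold change was 0.11, 0.21, 0.26, 0.02, 0.22 and 0.05 in gs1B8, gs2_B4, gs1_B11, gs2_F6, gs1_B4 and gs1_C8, where the median of all genes lay between -0.02 and 0.00. The 6 comparisons share the same parental libraries.

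Markers of cell types changed in the same clones, and their part in the members' results was not tested. Of 8 tested epithelial markers, 5 were called in gs1B8, 6 in gs2_B4, 6 in gs1_B11, 5 in gs2_F6, 6 in gs1_B4 and 4 in gs1_C8, in both directions in each. Krt17 rose in all 6 clones by between 1.24 and 4.43, and Krt19 fell in all but gs1_C8, by between 0.20 and 1.22, and rose there by 0.91. The 2 tested leukocyte markers were called in opposite directions in gs1B8, gs2_B4, gs2_F6 and gs1_B4: Cd68 rose by between 0.42 and 0.93 and Csf1r fell by at least 1.09. Csf1r also fell in gs1_B11 (-1.74), and neither passed in gs1_C8. The 1 tested platelet marker, Ppbp, rose in gs2_B4 (2.14), gs2_F6 (1.45), gs1_B4 (1.13) and gs1_C8 (0.98).

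All 33 tested members passed in at least 1 clone, as did 83.6% of all genes tested, but only 2 did so with the same sign in all 6: Itgb1 fell and the kindlin gene Fermt1 rose. Of all genes tested, 0.538% rose and 2.1% fell in all 6 clones. Both calls rest on gs1_C8, where 1 library, and for Itgb1 also the processing, can end them, as given for each gene beneath. Altogether 15 members were called only higher (24.6% of all genes), 4 only lower (Itgb1, Bcar1, Lims1 and Flna; 29.8%), and 14 higher in some clones and lower in others (29.2%). Called in at least 4 clones and only upward, as were 5.52% of all genes, were Itgb3, Fermt1, Pxn, Zyx, Tes, Actn1, Actn4 and Tns1, a set that spans a receptor, an activator, a scaffold, LIM proteins, actin crosslinkers and a tensin.

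**Figure D2:**
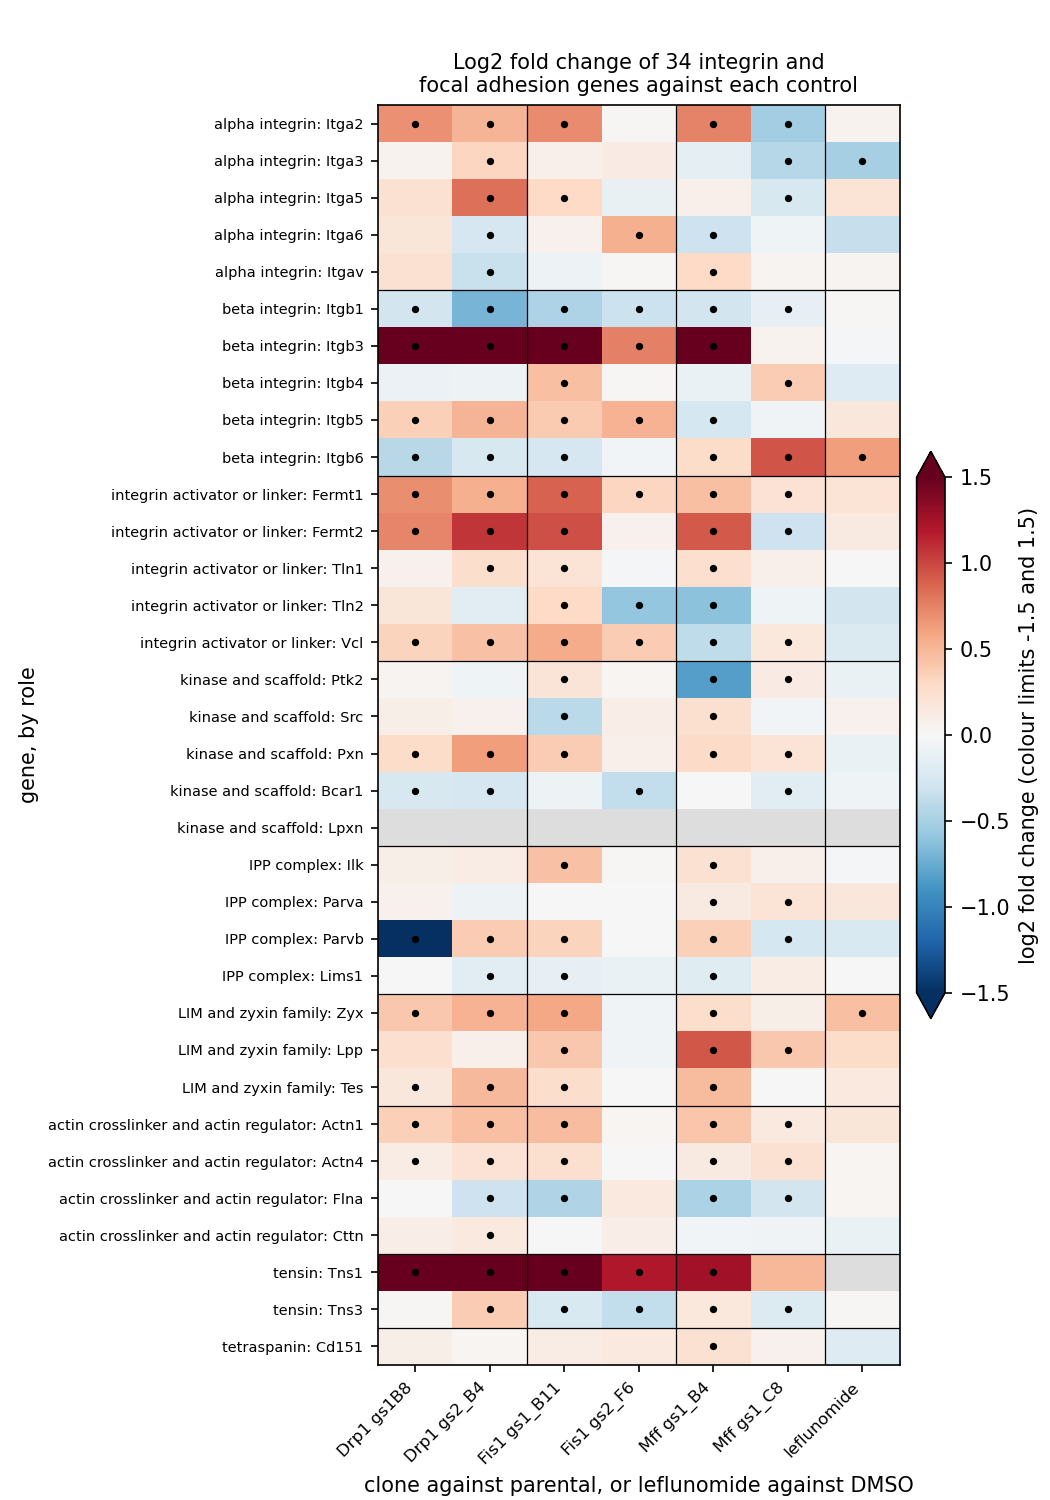
Log2 fold change of the 34 genes, by role, in each clone against parental cells and in leflunomide against DMSO cells. Dots mark an adjusted p under 0.05, grey marks genes not tested, and colours end at -1.5 and 1.5; Itgb1 and Fermt1 carry a dot in all 6 clones, and the columns of gs2_F6 and leflunomide hold the fewest.

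Itgb1 encodes the beta 1 subunit, the partner of most alpha chains measured here. It stood at 2094, 2131 and 2109 CPM in the parental libraries, at 1699, 1812 and 1728 CPM in gs1B8 and at 1266, 1341 and 1303 CPM in gs2_B4. In the Fis1 clones it stood at 1460, 1514 and 1623 CPM in gs1_B11 and at 1627, 1663 and 1784 CPM in gs2_F6. In the Mff clones it stood at 1686, 1736 and 1813 CPM in gs1_B4 and at 1909, 1931 and 1957 CPM in gs1_C8. All 18 knockout libraries lay below all 3 parental libraries, and gs2_B4 lay below every other clone. The log2 fold changes were -0.27, -0.70, -0.46, -0.32, -0.27 and -0.13 in gs1B8, gs2_B4, gs1_B11, gs2_F6, gs1_B4 and gs1_C8, each with an SE of 0.04 and edgeR adjusted p-values from 8.3e-11 (gs2_B4) to 0.020 (gs1_C8). The call in gs1_C8 was lost without parental replicate 1 (adjusted p = 0.058), parental replicate 2 (0.093), or any 1 of the gs1_C8 replicates (0.080, 0.051 and 0.056). It was also lost without the low-count filter (edgeR adjusted p = 0.11) and with all 27 libraries in 1 fit (0.051).

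Itgb3 encodes the beta 3 subunit, which pairs with alpha v as a receptor for vitronectin and fibronectin. It was scarce in parental cells at 0.577, 1.00 and 0.783 CPM, from 12, 25 and 17 counts. It reached 4.22, 4.95 and 3.79 CPM in gs1B8 and 6.44, 7.15 and 5.68 CPM in gs2_B4. It reached 6.32, 7.01 and 6.80 CPM in gs1_B11 and 6.06, 5.78 and 9.24 CPM in gs1_B4. In gs2_F6 it had 1.29, 1.40 and 1.37 CPM and in gs1_C8 0.663, 1.12 and 0.666 CPM. The first 4 clones lay far above the parental libraries, gs2_F6 lay just above them and gs1_C8 overlapped them. The log2 fold changes were 2.43 ± 0.23 (SE), 3.00 ± 0.23, 3.07 ± 0.23 and 3.13 ± 0.22 in gs1B8, gs2_B4, gs1_B11 and gs1_B4, with edgeR adjusted p-values of 1.7e-07 or less. In gs2_F6 the change was 0.76 ± 0.26 (edgeR adjusted p = 0.032), and it lost its call without any 1 of the parental replicates 1 and 3 or of the 3 gs2_F6 replicates (adjusted p = 0.13, 0.072, 0.051, 0.083 and 0.062). That call was also lost with only the groups compared in the fit (0.77, edgeR adjusted p = 0.052). In gs1_C8 the change was 0.05 ± 0.28 (adjusted p = 0.90), and turned to -0.10 without parental replicate 1 and to -0.26 without gs1_C8 replicate 2.

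Itgb5, the beta 5 subunit and another partner of alpha v, rose in both Drp1 and both Fis1 clones and fell in 1 Mff clone. Parental libraries had 42.7, 41.9 and 38.5 CPM. The Drp1 clones had 54.4, 52.4 and 50.5 CPM (gs1B8) and 59.0, 61.6 and 55.5 CPM (gs2_B4), and the Fis1 clones 55.5, 53.0 and 52.8 CPM (gs1_B11) and 59.7, 59.3 and 58.4 CPM (gs2_F6). The Mff clones had 35.9, 31.9 and 34.4 CPM (gs1_B4) and 39.8, 40.3 and 38.1 CPM (gs1_C8). All 12 libraries of the Drp1 and Fis1 clones thus lay above the parental ones, those of gs1_B4 lay below, and those of gs1_C8 overlapped them. The log2 fold changes were 0.35, 0.52, 0.39 and 0.53 in the Drp1 and Fis1 clones and -0.27 and -0.06 in gs1_B4 and gs1_C8 (SE 0.05 each).

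Itgb6, the epithelial beta 6 subunit that binds and activates latent TGF-beta with alpha v, went the other way. Parental libraries had 38.4, 34.3 and 34.1 CPM. The Drp1 clones had 26, 29.1 and 24.6 CPM (gs1B8) and 28.1, 33.2 and 28.8 CPM (gs2_B4), and the Mff clones 42.0, 42.6 and 44.9 CPM (gs1_B4) and 67.7, 67.8 and 69.1 CPM (gs1_C8). The Drp1 clones lay below and the Mff clones above every parental library, with log2 fold changes of -0.42 ± 0.07 and -0.25 ± 0.07 against 0.28 ± 0.07 and 0.94 ± 0.07, all called. The call in gs2_B4 was lost without parental replicate 1 (-0.19, adjusted p = 0.055). Among the Fis1 clones, gs1_B11 fell by 0.26 on the log2 scale and gs2_F6 was at -0.05 (adjusted p = 0.68). Itgb4, which with alpha 6 forms the hemidesmosome integrin, rose in gs1_B11 (0.46 ± 0.10) and gs1_C8 (0.38 ± 0.10) and did not pass in the other 4 clones, where it lay between -0.10 and 0.02.

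Each of the 5 alpha subunits was called in both directions among the clones. Itga2, the alpha 2 chain of a collagen receptor, had 229, 247 and 252 CPM in parental cells. It had 379, 399 and 394 CPM in gs1B8, 315, 347 and 370 CPM in gs2_B4, 376, 386 and 428 CPM in gs1_B11 and 361, 372 and 487 CPM in gs1_B4. It had 223, 248 and 266 CPM in gs2_F6, which overlapped the parental libraries, and 139, 174 and 194 CPM in gs1_C8, which lay below them. Its log2 fold changes were 0.69, 0.50, 0.71 and 0.75 in the 4 clones above parental, 0.02 in gs2_F6 and -0.52 in gs1_C8 (SE 0.11 each). Itga5 rose in gs2_B4 (0.83 ± 0.09) and gs1_B11 (0.30 ± 0.09) and fell by 0.25 in gs1_C8. Itga6, the laminin-binding alpha 6 chain, rose in gs2_F6 (0.54 ± 0.07) and fell in gs2_B4 (-0.25 ± 0.07) and gs1_B4 (-0.31 ± 0.07). Itga3, a second laminin receptor chain, rose in gs2_B4 (0.32 ± 0.06) and fell in gs1_C8 (-0.43 ± 0.06). Itgav, the common alpha chain of beta 3, beta 5 and beta 6, rose in gs1_B4 (0.30 ± 0.09) and fell in gs2_B4 (-0.33 ± 0.09), so its sign did not follow that of Itgb3, which rose in both.

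**Figure D3:**
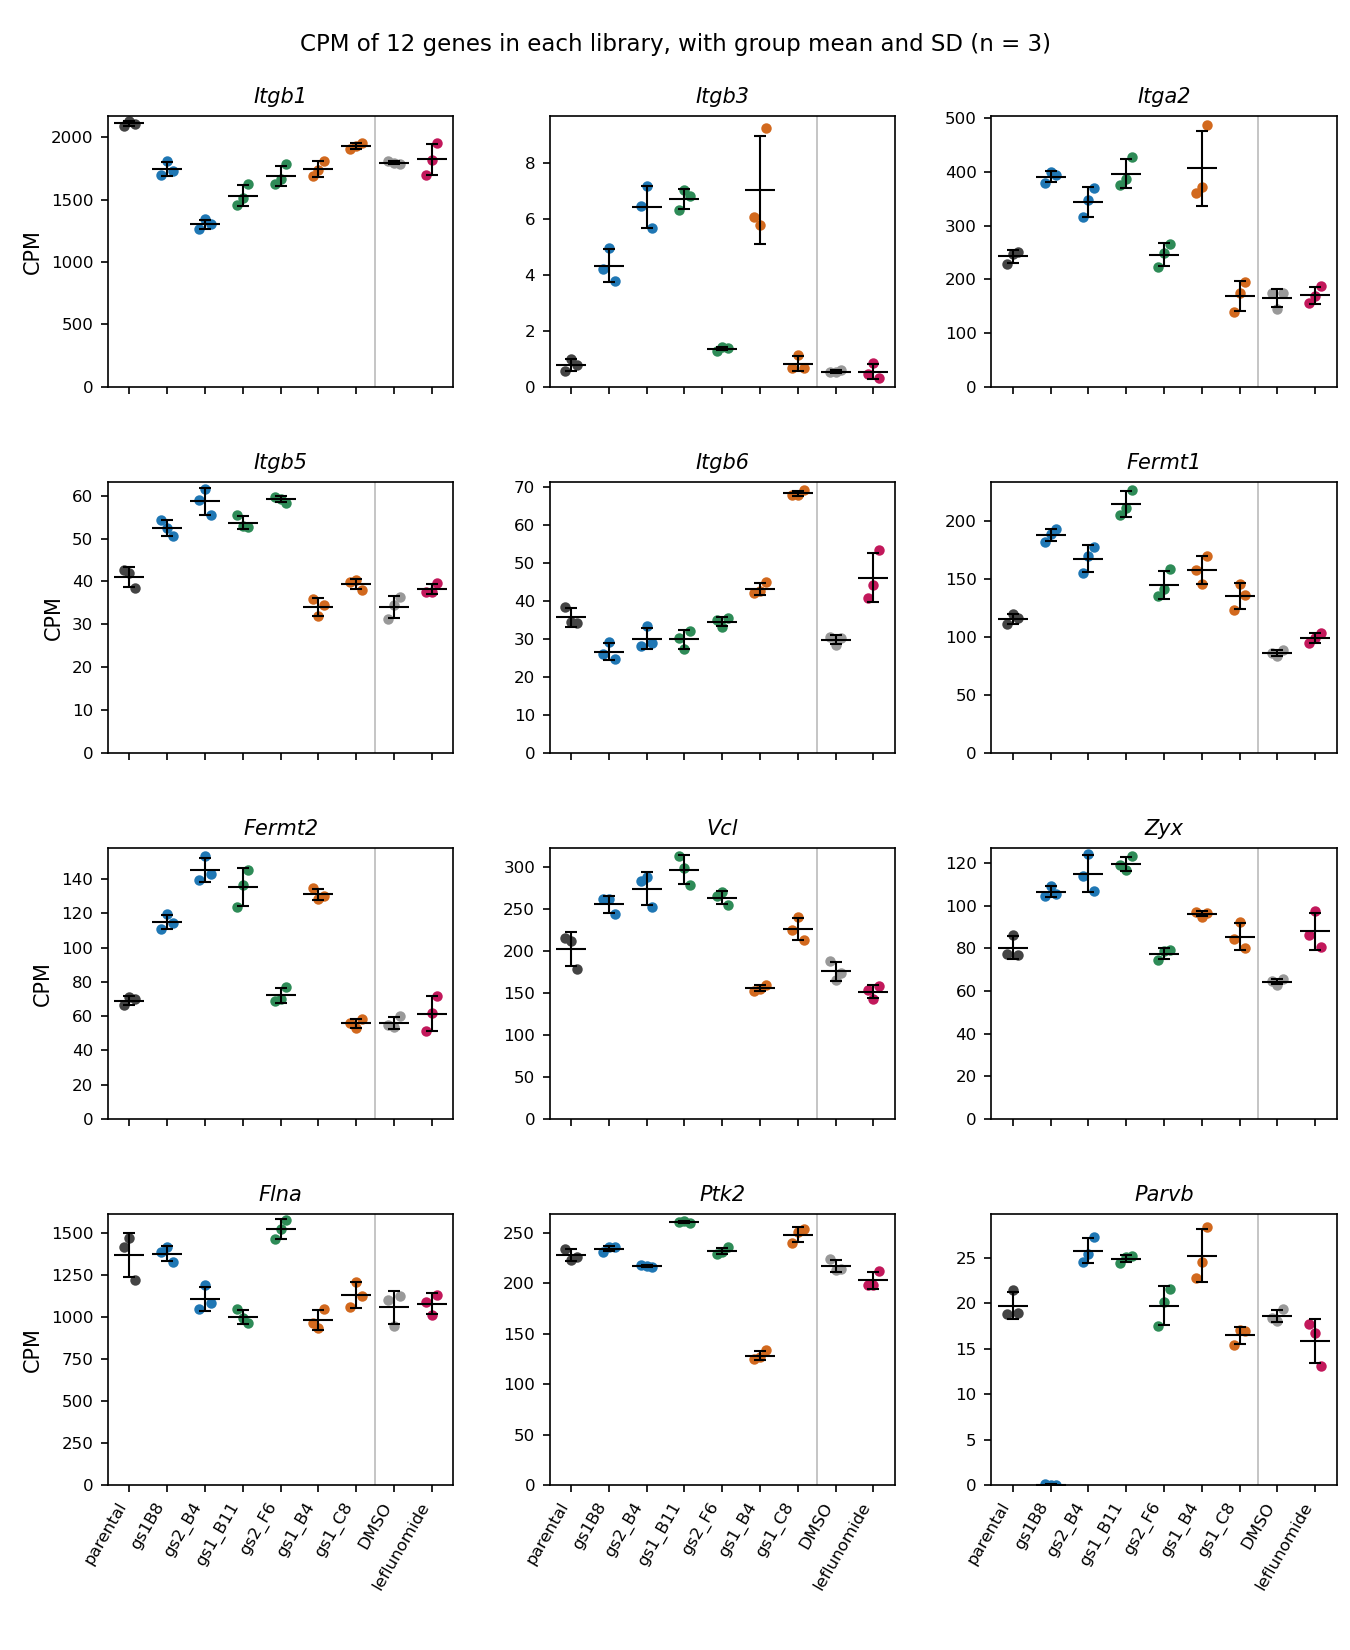
CPM of 12 genes in each library, grouped by parental cells, the 6 clones, DMSO and leflunomide, with the group mean and SD (n = 3 libraries; the vertical line separates the arms, which were scaled separately). Itgb1 lies below the parental libraries in all 6 clones, Itgb3, Itga2 and Fermt2 lie above them in gs1B8, gs2_B4, gs1_B11 and gs1_B4, Ptk2 is low in gs1_B4, and Parvb is near 0 in gs1B8.

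Of the proteins that switch integrins on, the kindlins rose in most clones. Fermt1, kindlin-1 of epithelial cells, had 111, 120 and 117 CPM in parental cells. It had 182, 189 and 193 CPM in gs1B8, 155, 170 and 178 CPM in gs2_B4, 206, 212 and 227 CPM in gs1_B11 and 136, 141 and 159 CPM in gs2_F6. It had 158, 146 and 170 CPM in gs1_B4 and 123, 146 and 136 CPM in gs1_C8. All 18 knockout libraries lay above all parental libraries, whereas those of Itgb1 all lay below. The log2 fold changes were 0.70, 0.53, 0.89, 0.32, 0.45 and 0.22 in gs1B8, gs2_B4, gs1_B11, gs2_F6, gs1_B4 and gs1_C8 (SE 0.07 each), with edgeR adjusted p-values from 4.3e-09 to 0.014. Without gs1_C8 replicate 2 the change in that clone was 0.17 and the call was lost (adjusted p = 0.090).

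Fermt2, the widely expressed kindlin-2, split the clones as Itgb3 and Itga2 did. Parental libraries had 66.5, 71.1 and 69.8 CPM. It had 111, 119 and 114 CPM in gs1B8, 140, 153 and 143 CPM in gs2_B4, 124, 137 and 146 CPM in gs1_B11 and 135, 129 and 130 CPM in gs1_B4. In gs2_F6 it had 69.1, 70.1 and 77.1 CPM and in gs1_C8 55.8, 53.0 and 58.4 CPM. The first 4 clones lay well above parental, gs2_F6 overlapped it and gs1_C8 lay below, with log2 fold changes of 0.73, 1.07, 0.97, 0.92, 0.06 and -0.31 (SE 0.06 each). Tln1, the main talin, rose in gs2_B4, gs1_B11 and gs1_B4 by between 0.21 and 0.26.

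Tln2, the second talin, was called in opposite directions in the 2 Fis1 clones. It had 22.1, 22 and 16.7 CPM in parental cells, 28.1, 23.1 and 23.7 CPM in gs1_B11 and 14.9, 13 and 12.7 CPM in gs2_F6. The libraries of both clones lay clear of the parental ones, on opposite sides. The log2 fold changes were 0.30 ± 0.12 and -0.58 ± 0.12, and the rise in gs1_B11 lost its call without gs1_B11 replicate 1 (0.23, adjusted p = 0.15) or parental replicate 3 (0.18, adjusted p = 0.23). That call was also lost with only the groups compared in the fit (0.31, edgeR adjusted p = 0.052). Tln2 also fell in gs1_B4 (-0.62 ± 0.12).

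Vcl, encoding vinculin, had 215, 212 and 179 CPM in parental cells. It had 261, 261 and 244 CPM in gs1B8, 283, 288 and 252 CPM in gs2_B4, 314, 299 and 279 CPM in gs1_B11 and 266, 270 and 255 CPM in gs2_F6. It had 153, 154 and 159 CPM in gs1_B4 and 225, 240 and 213 CPM in gs1_C8. Both clones of Drp1 and of Fis1 lay above all parental libraries, gs1_B4 lay below them and gs1_C8 overlapped them. The log2 fold changes were 0.34, 0.44, 0.56, 0.38, -0.38 and 0.16 (SE 0.07 each). The call in gs1_C8 (adjusted p = 0.049) was lost without gs1_C8 replicate 1 (0.062), gs1_C8 replicate 2 (0.19) or parental replicate 3 (0.32). It was also lost with only the groups compared in the fit (0.18, edgeR adjusted p = 0.070).

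RefSeq promoter windows on GRCm38.p6 were matched for 26 of the 34 genes, 34 windows in all. Of the 250 bases upstream of each start, 14.7% of member windows held the TEAD motif GGAATG on either strand against 12.6% of all 32851 windows, 5.88% held the AP-1 motif TGANTCA against 6.75%, and 8.82% held a CArG box, the motif of serum response factor, against 1.47%. The CArG matches were 3 windows, of Fermt2, Itgb6 and Vcl, and the TEAD matches were in Actn4, Flna, Itgb1, Lpp and Vcl. The Itgb6 and Lpp matches lay in windows inside the gene, and the windows at the outer starts of these genes held none of the 3 motifs. No position was shared by the TEAD and CArG matches in the Vcl window. The median GC content was 65.2% in member windows and 52.4% in all. The windows of Itgb1 and Fermt1 are shown because these genes changed in all 6 clones, that of Vcl because it holds both a TEAD and a CArG match, and that of Parvb because its mRNA was nearly lost in 1 clone. None of the 4 overlaps a GENCODE exon, capitals mark motif matches, and each is written 5′ to 3′ on the strand of its gene.
Itgb1, chr8:128685404-128685653, plus strand: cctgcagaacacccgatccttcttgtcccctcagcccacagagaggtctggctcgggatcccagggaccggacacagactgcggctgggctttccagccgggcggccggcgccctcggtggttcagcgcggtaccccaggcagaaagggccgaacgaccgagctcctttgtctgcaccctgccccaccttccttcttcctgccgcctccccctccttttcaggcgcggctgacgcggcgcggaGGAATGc
Fermt1, chr2:132946037-132946286, minus strand: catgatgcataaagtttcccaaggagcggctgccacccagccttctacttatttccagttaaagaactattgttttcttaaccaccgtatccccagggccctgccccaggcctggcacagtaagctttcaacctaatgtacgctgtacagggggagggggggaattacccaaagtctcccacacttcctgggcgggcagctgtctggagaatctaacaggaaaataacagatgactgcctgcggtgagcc
Vcl, chr14:20929148-20929397, plus strand: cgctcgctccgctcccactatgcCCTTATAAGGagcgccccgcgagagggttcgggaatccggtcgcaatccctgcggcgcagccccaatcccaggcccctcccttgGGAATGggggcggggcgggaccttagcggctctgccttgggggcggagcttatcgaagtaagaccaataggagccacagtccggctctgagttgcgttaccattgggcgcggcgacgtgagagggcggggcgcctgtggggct
Parvb, chr15:84231793-84232042, plus strand: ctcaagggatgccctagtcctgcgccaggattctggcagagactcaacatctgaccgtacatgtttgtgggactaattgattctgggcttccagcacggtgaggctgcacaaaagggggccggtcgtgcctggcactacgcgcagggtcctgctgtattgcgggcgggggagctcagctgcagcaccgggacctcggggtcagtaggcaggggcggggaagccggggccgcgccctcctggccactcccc

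The TEAD match of Itgb1 begins at position -7 from the start, and the matches of Vcl at -143 (TEAD) and -227 (CArG box). The windows of Fermt1 and Parvb hold none of the 3 motifs. Of the members with a TEAD match, Itgb1 fell in all 6 clones, Flna fell in 4, and Vcl rose in 5 and fell in gs1_B4. Actn4 rose in 5 clones and Lpp in 3. Regulation through these motifs was not tested.

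Among the kinases and scaffolds, Pxn was called only upward, and Ptk2 fell in 1 clone and rose in 2 others. Ptk2 encodes focal adhesion kinase. It had 234, 223 and 226 CPM in parental cells and 125, 126 and 133 CPM in gs1_B4. In the other 5 clones it lay between 216 and 262 CPM, so gs1_B4 was apart from every other library. The log2 fold change was -0.83 ± 0.03 in gs1_B4 (edgeR adjusted p = 2.5e-13), against 0.19 ± 0.03 in gs1_B11 and 0.12 ± 0.03 in gs1_C8, which were called higher; the call in gs1_C8 was lost without the low-count filter (0.13, adjusted p = 0.061). Pxn, encoding the scaffold paxillin, rose in 5 clones by between 0.20 and 0.63 and was at 0.08 in gs2_F6 (adjusted p = 0.22).

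Bcar1, encoding the docking protein p130Cas, fell in 4 clones. It had 95, 98.1 and 84.3 CPM in parental cells, 76.4, 79.8 and 78.8 CPM in gs1B8 and 76.9, 77.6 and 78.3 CPM in gs2_B4. Both Drp1 clones lay below the parental libraries, with log2 fold changes of -0.24 ± 0.05 and -0.25 ± 0.05, and gs2_F6 (-0.37) and gs1_C8 (-0.16) were also called lower. Src, the kinase that phosphorylates both scaffolds, fell by 0.40 in gs1_B11 and rose by 0.24 in gs1_B4. Lpxn, a paxillin relative best known from blood cells, had between 0 and 8 counts in every library.

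In the complex of integrin-linked kinase, PINCH and parvin, the change of Parvb in gs1B8 was the greatest fold change of any member. Parvb encodes beta-parvin, which links the kinase to actin. It had 391, 535 and 411 counts in the parental libraries and 2, 1 and 1 counts in gs1B8, or 18.8, 21.4 and 18.9 CPM against 0.0820, 0.0381 and 0.0408 CPM. In the 5 other clones it lay between 15.4 and 28.4 CPM. The parental level was 372-fold that of gs1B8, with a 95% counting interval of 145 to 1369 that covers counting error only, and edgeR's adjusted p was 2.6e-16. In the other Drp1 clone, gs2_B4, Parvb rose to 24.6, 25.5 and 27.3 CPM (log2 fold change 0.38 ± 0.08), and it also rose in gs1_B11 (0.33 ± 0.08) and gs1_B4 (0.35 ± 0.08) and fell in gs1_C8 (-0.26 ± 0.09). Its close relative Parva, encoding alpha-parvin, had 161, 160 and 157 CPM in gs1B8 against 162, 154 and 141 CPM in parental cells (log2 fold change 0.07 ± 0.05, adjusted p = 0.38). Ilk, the pseudokinase core of the complex, rose in gs1_B11 (0.44 ± 0.07) and gs1_B4 (0.23 ± 0.07), and Lims1, encoding PINCH-1, fell in gs2_B4, gs1_B11 and gs1_B4 by between 0.12 and 0.19.

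Both Parvb and Ptk2 lie on chromosome 15, and their nearest tested neighbours were examined after these values had been seen. In gs1B8, Samm50 and Ttll12 fell by 0.25 and 0.31, and the other 6 neighbours of Parvb did not pass (from -0.21 to 0.33), all far smaller in size than the change of Parvb. Ttll12 also fell in gs2_B4, gs1_B11 and gs1_B4 (-0.36, -0.49 and -0.49), where Parvb rose, and Samm50 fell in gs1_B11 (-0.14) and rose in gs1_B4 (0.13). In gs1_B4 6 of the 8 neighbours of Ptk2 fell. On one side Ago2, Chrac1, Peg13 and Trappc9 fell by 1.09, 1.26, 0.95 and 1.15, and on the other Gm49066 and Dennd3 fell by 1.41 and 0.56. Gm7908, which lies within the span of Ptk2, and Gm10362, with an SE of 0.92, did not pass. Neighbours were taken in order of their start coordinate. Peg13 lies within Trappc9, Chrac1 overlaps Ago2 and, beside Parvb, Gm49513 overlaps Samm50, so neither set of 8 neighbours is 8 separate loci. The coordinates are those of the deposited table on GRCm38, where Ptk2 spans chr15:73205102-73423280 and Parvb spans chr15:84232043-84315688. By GENCODE M21, Ptk2 lies on the minus strand and Parvb on the plus strand.

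**Figure D4:**
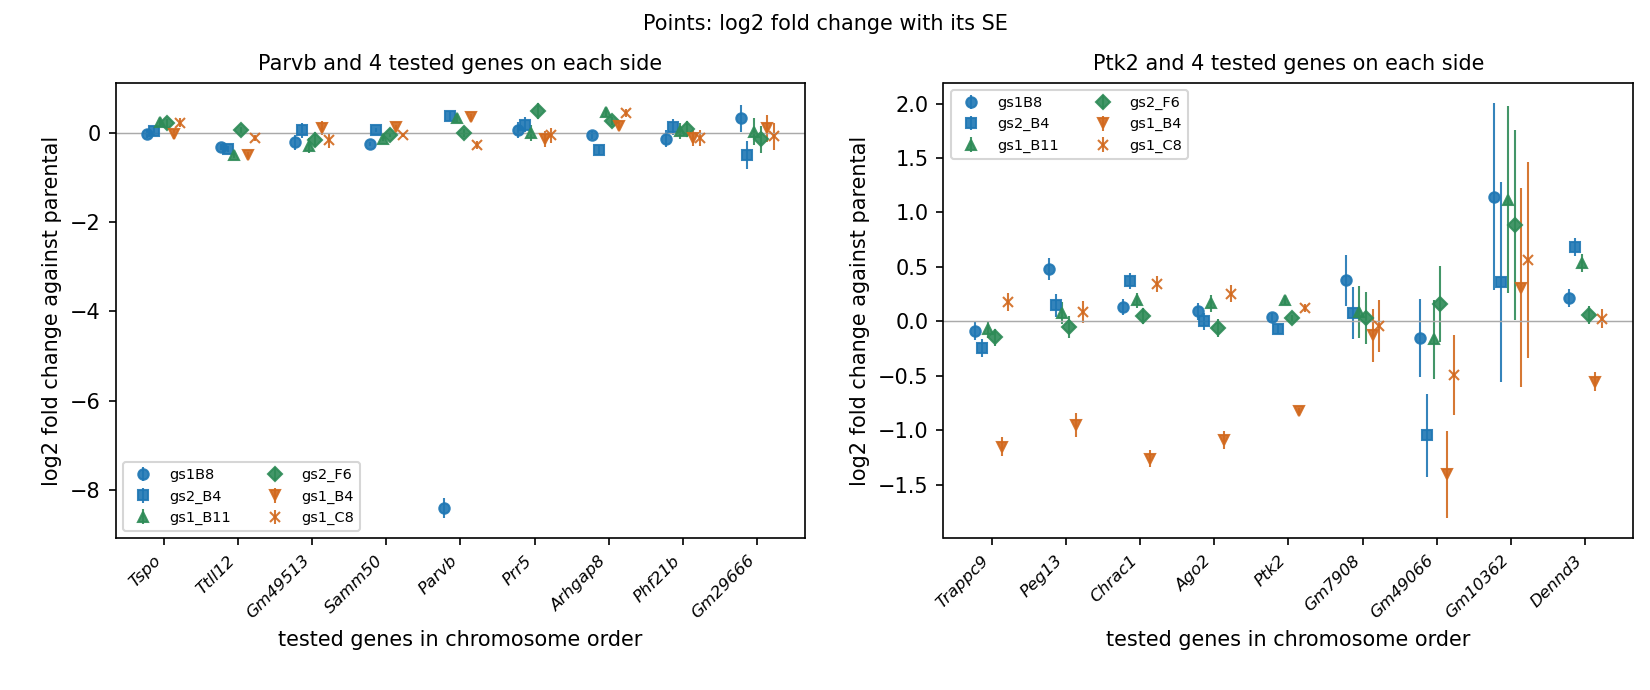
Log2 fold change with its SE for Parvb and Ptk2 and the 4 tested genes before and after each by start coordinate, in the 6 clones. Some of these genes overlap, and Gm7908 lies within Ptk2. Parvb lies at -8.41 in gs1B8, far below its neighbours, whereas Ptk2 at -0.83 in gs1_B4 stands among neighbours most of which are low in that clone.

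Of the LIM proteins of adhesions and stress fibres, Zyx and Tes rose in the same 4 clones. Zyx, encoding zyxin, rose in gs1B8, gs2_B4, gs1_B11 and gs1_B4 by between 0.26 and 0.58 and lay at -0.05 in gs2_F6 and 0.09 in gs1_C8. Tes, encoding testin, rose in those clones by between 0.17 and 0.49. Lpp, a zyxin relative, had 39.2, 38.8 and 27.9 CPM in parental cells, 63.1, 60.8 and 78.8 CPM in gs1_B4 and 47.1, 50.3 and 43.1 CPM in gs1_C8. Both Mff clones lay above the parental libraries, with log2 fold changes of 0.94 ± 0.12 and 0.41 ± 0.13, and Lpp also rose in gs1_B11 (0.40 ± 0.13). The call in gs1_C8 was lost without parental replicate 3 (0.26, adjusted p = 0.087), the lowest of the parental libraries.

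The actin crosslinkers divided between the alpha-actinins and filamin. Actn1, encoding alpha-actinin-1, had 369, 382 and 325 CPM in parental cells, 477, 462 and 495 CPM in gs1_B4 and 381, 423 and 389 CPM in gs1_C8. It rose in 5 clones, by 0.36, 0.45, 0.47 and 0.41 in gs1B8, gs2_B4, gs1_B11 and gs1_B4 and by 0.15 in gs1_C8, where the libraries overlap the parental ones. That last call was lost without parental replicate 3 (0.08, adjusted p = 0.20) or gs1_C8 replicate 2 (0.11, adjusted p = 0.14). It was also lost with only the groups compared in the fit (0.17, edgeR adjusted p = 0.062). Actn4 rose in the same 5 clones by between 0.11 and 0.24. Flna, encoding filamin A, had 1418, 1470 and 1219 CPM in parental cells, 964, 935 and 1048 CPM in gs1_B4 and 1059, 1210 and 1122 CPM in gs1_C8. Both Mff clones lay below the parental libraries, with log2 fold changes of -0.48 ± 0.07 and -0.28 ± 0.07, and Flna also fell in gs2_B4 (-0.31) and gs1_B11 (-0.45). Cttn, encoding cortactin, passed only in gs2_B4 (0.14 ± 0.05).

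The tensins, which bind integrin tails at fibrillar adhesions, differed in level and in sign. Tns1 rested on few counts: 3, 4 and 4 in the parental libraries, 14, 12 and 15 in gs1B8, 12, 14 and 14 in gs2_B4, 20, 41 and 24 in gs1_B11 and 9, 13 and 8 in gs2_F6. All of these clones lay above the parental libraries, and the log2 fold changes were 1.72 ± 0.37, 1.63 ± 0.37, 2.81 ± 0.34 and 1.20 ± 0.39. It also rose in gs1_B4 (1.27 ± 0.38), and was at 0.50 ± 0.42 in gs1_C8. The call in gs2_F6 (adjusted p = 0.036) was lost without parental replicate 1, 2 or 3 (0.091, 0.088 and 0.057) or gs2_F6 replicate 1 or 2 (0.059 and 0.12), and also with DESeq2 (0.10), without the low-count filter (0.13) and with all 27 libraries in 1 fit (0.098). Tns3 had 330, 338 and 326 CPM in parental cells, 274, 279 and 296 CPM in gs1_B11 and 246, 258 and 268 CPM in gs2_F6. Both Fis1 clones lay below the parental libraries (-0.23 ± 0.05 and -0.37 ± 0.05), while gs2_B4 rose by 0.38. Cd151, a tetraspanin that binds laminin-type integrins, passed only in gs1_B4 (0.22 ± 0.07).

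Read by genotype, where a gene counts if both clones passed with the same sign, 12 members rose and 3 fell in Drp1 cells, against 7.94% and 12.1% of all genes tested. In Fis1 cells 5 rose and 2 fell, against 5.94% and 9.02%. In Mff cells 7 rose and 2 fell, against 7.37% and 11.3%. Opposite calls in the clones of a genotype were made for 1 member in Drp1 (2.07% of all genes), 1 in Fis1 (5.29%) and 6 in Mff cells (8.69%). The Drp1 opposite calls were 2 without parental replicate 1, gs1B8 replicate 3 or gs2_B4 replicate 3, and 3 without parental replicate 2 or gs2_B4 replicate 2. Those in Fis1 were 0 without gs1_B11 replicate 1 or parental replicate 3, and 2 without parental replicate 2. Without parental replicate 3 the members higher in both Mff clones were 4, and the Fis1 count of 5 fell to 3 without parental replicate 1 or 3 or gs2_F6 replicate 1 or 2. The members lower in both Mff clones were 1 without parental replicate 1 or 2 or any 1 of the gs1_C8 replicates.

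The clones of a genotype were also tested against each other. In the Drp1 pair 19 of 33 members differed (41% of all genes did), in the Fis1 pair 27 (47.6%) and in the Mff pair 27 (54.7%). Leaving out 1 library of the pair gave 14 to 18 members in Drp1, 22 to 25 in Fis1 and 24 to 27 in Mff. The share of all genes in those fits was not counted. Of the Drp1 pair, 11 were higher and 8 lower in gs2_B4 (20.1% and 20.9% of all genes). In the Fis1 pair, 6 were higher and 21 lower in gs2_F6 (22.9% and 24.7% of all genes), among the latter Itgb3 (-2.31), Fermt2 (-0.91), Itga2 (-0.69), Zyx (-0.63) and Fermt1 (-0.57). In the Mff pair 16 were lower and 11 higher in gs1_C8 (26.4% and 28.3% of all genes), with Itgb3 at -3.08, Itga2 at -1.27, Fermt2 at -1.23 and Ptk2 at 0.95. The Drp1 pair differed less beyond Parvb: Itgb3 was 0.57 and Fermt2 0.34 higher in gs2_B4, and Itgb1 was 0.42 lower (edgeR adjusted p = 1.8e-07).

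**Figure D5:**
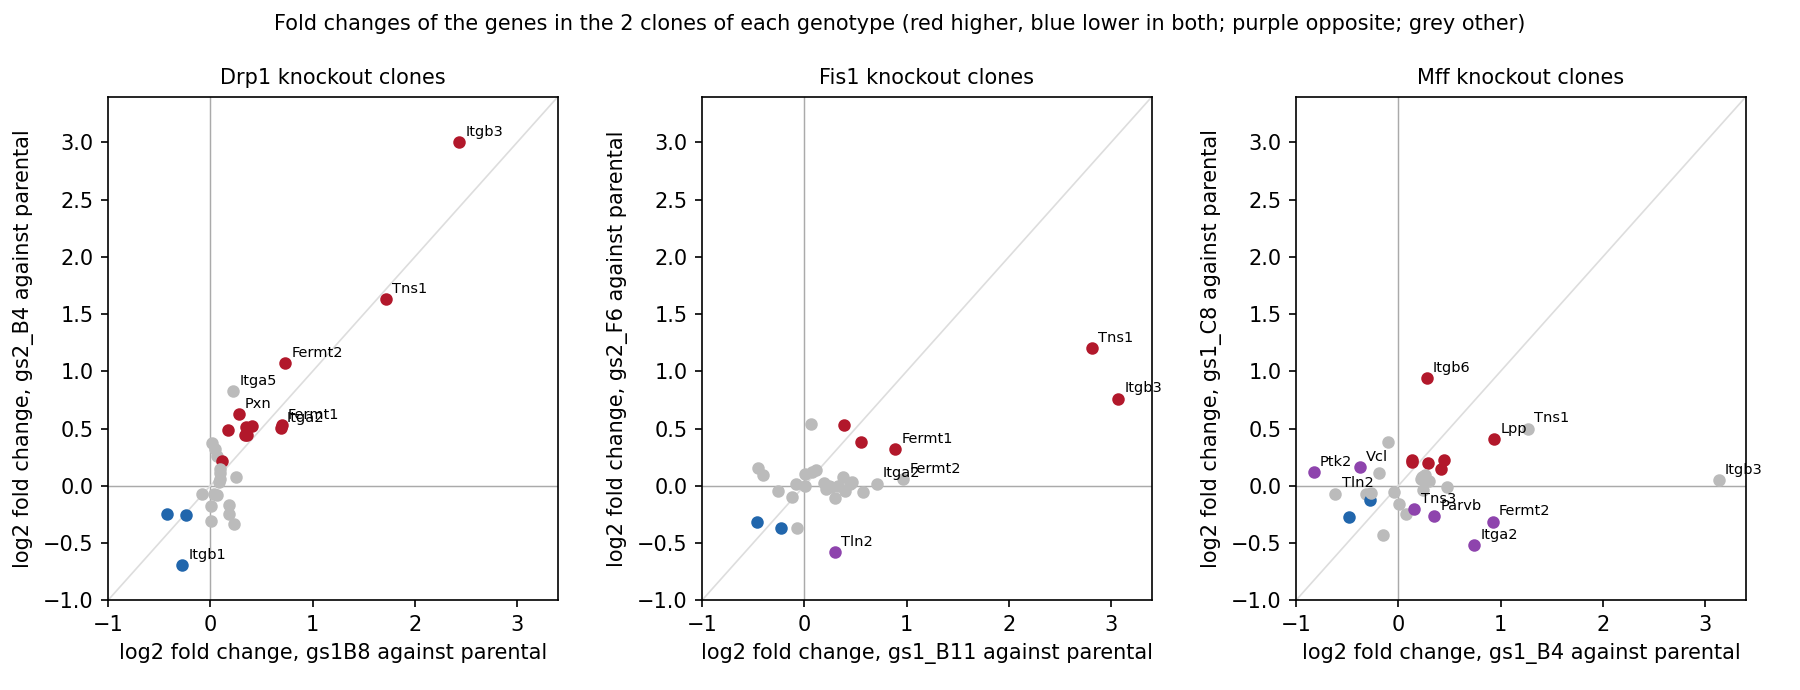
Log2 fold change against parental cells in 1 clone of each genotype (horizontal) and in the other (vertical), 1 point per gene; Parvb at -8.41 in gs1B8 lies outside the Drp1 panel. Points of the Drp1 panel lie along the diagonal, those of the Fis1 panel spread along the horizontal axis, and 6 genes of the Mff panel (purple) have opposite calls.

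With the clone as the replicate, no genotype was told apart from another by edgeR at any member. On the summed counts of each clone, 0 of 34 members were called in each of the 3 pairs of genotypes, where 0%, 0.00645% and 0.00645% of 15513 genes were. At an unadjusted p under 0.05 the members were Tns3 between Fis1 and Drp1, Itga3, Itgb5 and Itgb6 between Mff and Drp1, and Itgb5, Itgb6 and Vcl between Mff and Fis1. Of all genes tested, 2.05%, 6.14% and 8.33% had such a p in these 3 pairs. DESeq2 on the same sums called 0, 2 and 1 members: Itgb5 lower (-0.59, adjusted p = 0.027) and Itgb6 higher (0.98, adjusted p = 0.034) in Mff than in Drp1 cells, and Itgb5 lower in Mff than in Fis1 cells (-0.61, adjusted p = 0.015). Of all genes, DESeq2 called 9, 225 and 399 in these 3 pairs, where edgeR called 0, 1 and 1.

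In the drug arm 32 members were tested, Lpxn and Tns1 having too few counts, and 3 were called. Itgb6 and Zyx rose, as did 1.84% of 12603 genes, and Itga3 fell, as did 0.944% (2.79% called in all). Itgb6 had 30.6, 28.5 and 30.2 CPM with DMSO and 40.7, 44.1 and 53.3 CPM with leflunomide (log2 fold change 0.63 ± 0.10, edgeR adjusted p = 0.025). Zyx had 64.5, 63.0 and 65.5 CPM with DMSO and 86.1, 97.6 and 80.5 CPM with leflunomide (0.45 ± 0.08, adjusted p = 0.031). Itga3 had 761, 688 and 713 CPM with DMSO and 535, 458 and 542 CPM with leflunomide (-0.49 ± 0.09, adjusted p = 0.029). The groups did not overlap at any of these genes. Itgb1 had 1807, 1796 and 1789 CPM with DMSO and 1701, 1818 and 1951 CPM with leflunomide, which overlap (0.02 ± 0.08, adjusted p = 0.90), and Fermt1 was at 0.21 ± 0.06 (adjusted p = 0.12).

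The leflunomide calls depended on single libraries, while the changes kept their sign. Leaving out 1 library gave changes from -0.54 to -0.42 for Itga3, 0.51 to 0.71 for Itgb6 and 0.37 to 0.51 for Zyx. All 3 genes stayed called without leflunomide replicate 3, and under each alternative of the processing that was run on the drug arm. Without DMSO replicate 3, the library rich in the 45S precursor, Itgb6 stayed called (0.64, adjusted p = 0.044), and Itga3 (-0.50, adjusted p = 0.051) and Zyx (0.46, adjusted p = 0.066) did not pass. Without DMSO replicate 1, DMSO replicate 2 or leflunomide replicate 2 none of the 3 passed (adjusted p from 0.096 to 0.15), and without leflunomide replicate 1 Itga3 (0.064) and Zyx (0.067) did not. With all 27 libraries in 1 fit 6 members rose and 3 fell. The share of all genes called in that fit was not counted, and 1.84% and 0.944% belong to the drug arm fitted alone. Leukocyte markers moved with the drug: their summed level was 4.74 to 6.94 CPM with DMSO and 12.3 to 15.96 CPM with leflunomide, both of the 2 tested of 10, Cd68 (0.93) and Csf1r (1.75), rose, and Cd3e, Adgre1 and Lyz2 were at 0 in both groups. Epithelial markers summed to 2409 to 2514 CPM with DMSO and 1820 to 2074 CPM with leflunomide, with Krt7 lower (-0.58). The part of these markers in the result was not tested.

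Other genes of the pathway were counted from lists that do not hold the members. The counts are to be read against the shares of all genes that rose and fell in both clones: 7.94% and 12.1% in Drp1, 5.94% and 9.02% in Fis1 and 7.37% and 11.3% in Mff cells. Of 16 further integrin subunits 6 were expressed well enough to test. In both Drp1 clones 3 of these rose, among them Itga1 (2.24 and 2.17, from 0.465 CPM in parental cells) and Itgb7 (2.36 and 5.08, from 0.301 CPM). In both Mff clones Itga1 rose while Itgb2, the leukocyte beta 2 chain, fell from 16.6 CPM to 1.71 and 1.58 CPM. In Fis1 cells 0 of 6 passed in both clones with 1 sign. Of 17 tested integrin ligands, 3 rose and 2 fell in both Drp1 clones, 1 and 2 in both Fis1 clones and 1 and 1 in both Mff clones. The matricellular ligand Ccn2 rose in the Drp1 (0.55 and 0.62) and Mff clones (0.89 and 0.68), and collagen V chain Col5a1 rose in the Drp1 (1.23 and 1.88) and fell in the Mff clones (-0.41 and -1.11).

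Of 32 tested adhesion adaptors outside the member list, 11 rose and 0 fell in both Drp1 clones, 9 rose and 1 fell in both Fis1 clones, and 7 rose and 0 fell in both Mff clones, each rise above the share of all genes. Examples were Fblim1, a filamin-binding LIM protein, in Drp1 cells (0.82 and 1.08), Vasp, an actin polymerisation factor, in Fis1 cells (0.41 and 0.31) and Sorbs2, a vinculin-binding adaptor, in Mff cells (0.83 and 1.20). Of 33 tested adhesion kinases and partners, 4 rose and 1 fell in Drp1, 0 rose and 1 fell in Fis1 and 3 rose and 2 fell in Mff cells, below the shares of all genes except for the rises in Drp1 and Mff, with Pak1, a kinase acting on the cytoskeleton, lower in the Drp1 (-0.33 and -0.33) and Fis1 clones (-0.25 and -0.52). Of 14 hemidesmosome and tetraspanin partners, 2 rose and 1 fell in Drp1, 2 rose and 4 fell in Fis1 and 0 rose and 4 fell in Mff cells, where the galectin gene Lgals1 fell from 3181 CPM to 1963 and 2155 CPM. Of 23 tested actin contractile and serum response factor target genes, 6 rose in Drp1, 4 in Fis1 and 4 in Mff cells and 0 fell, among them Tpm2, a tropomyosin, in Fis1 (2.81 and 1.22) and Mff cells (1.69 and 2.18).

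With leflunomide, where 1.84% of all genes rose and 0.944% fell, 4 of 17 tested ligands rose and 0 fell: Tnc (1.69), Ccn1 (0.90), Fn1 (0.85) and Ccn2 (0.82), which encode tenascin C, matricellular CCN proteins and fibronectin. Of the adaptors 2 of 32 rose, Sorbs2 (1.00) and Palld (0.52), and Tagln rose alone among 23 contractile genes (3.51 ± 0.66). Tagln rested on few counts, 3, 1 and 0 with DMSO and 11, 19 and 26 with leflunomide. Of 33 kinases and partners Pak1 rose (0.33) and the Src-family kinase Lyn fell by 0.42, and of 13 hemidesmosome and tetraspanin partners the tetraspanin Cd82 rose (0.50).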

How the data were processed

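The authors deposited RSEM expected counts per gene for 27 libraries. Per the submitters' processing notes, reads were trimmed with Trimmomatic 0.35 and quantified with RSEM on GRCm38 (mm10), while the sources used here do not name the RSEM version, the aligner or the annotation. Per the labels' protocols, libraries were made with the KAPA RNA HyperPrep kit after poly-A selection. Of the deposited expected counts 91.5% were whole (74.9% of the positive ones), and the rest were rounded before fitting.

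Column names give genotype, clone code and treatment, and a serial number in place of a replicate number; replicates are numbered in that order. The 34 members, all other lists and the rule for genes given in full were chosen with earlier results of these data known. That rule took, per genotype, up to 4 members higher and 4 lower in both clones with the largest mean change and the most opposed one, every member called in all 6 clones and every member called with leflunomide. Members and clones given by library outside that rule (such as Itgb5, Ptk2, Parva, and Fermt2 outside Drp1), the neighbours, and the other members named were chosen after their values were seen.

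In R 4.3.3, edgeR 4.0.16 was used with filterByExpr, TMM scaling and the quasi-likelihood F test (two-sided), with Benjamini-Hochberg adjustment over all genes tested and an adjusted p under 0.05 as threshold. The 21 libraries of the knockout arm formed 1 fit and the 6 of the drug arm another. For genotype against genotype, the 3 libraries of a clone were summed and each clone was 1 replicate. CPM values are TMM-scaled within an arm. CPM per kb are scaled over all 27 libraries and divided by the exon union of GENCODE M21, matched to all 34 members by identifier. The fits of the knockout arm and the drug arm were run on simulated counts, with changes set in gs1B8 and in leflunomide and the same spread for every gene. The fit of summed counts was not run on simulated data. The sources used here do not say whether the strand of the reads was used, so how reads of overlapping genes were assigned is not known. Alternatives were DESeq2 1.42.0, its size factors, no low-count filter, ribosomal RNA genes left out, the serial run as a block, only the groups compared, all 27 libraries in 1 fit, and each library left out. Figures were drawn with matplotlib 3.10.9 in Python 3.11.15.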

Additional observations from a re-analysis of the deposited data

Results flagged for a closer look

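Clones of the same genotype differed at many members by edgeR's test of the clones against each other: 19 of 33 in the Drp1 pair (41% of all genes did), 27 in the Fis1 pair (47.6%) and 27 in the Mff pair (54.7%). Genes with opposite calls against parental cells were Parvb in the Drp1 pair (gs2_B4 over gs1B8, log2 difference 8.79, adjusted p = 3.5e-17) and Tln2 in the Fis1 pair (gs2_F6 over gs1_B11, -0.88, adjusted p = 4.3e-06). In the Mff pair they were, as gs1_C8 over gs1_B4, Itga2 (-1.27), Fermt2 (-1.23), Parvb (-0.62), Tns3 (-0.36), Vcl (0.54) and Ptk2 (0.95), with adjusted p-values from 1.5e-14 to 2.7e-06. The test for outlying libraries was not applied to the members, since each group holds 3.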

How the results depend on the processing

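Across the alternatives other than leaving out a library, members with opposite calls in the Drp1 clones numbered 3 in place of 1 with DESeq2, with its size factors, without the low-count filter, without ribosomal RNA genes and with the replicate block, and 2 with only the groups compared or with all 27 libraries. Without the low-count filter, opposite calls in the Fis1 clones were 2, members lower in both Mff clones 1, lower in all 6 clones 0 and lower with leflunomide 2. With only the groups compared, members higher in both Fis1 clones were 3 and opposite calls there 0. With all 27 libraries, members lower in both Mff clones were 1, lower in all 6 clones 0, and higher and lower with leflunomide 6 and 3. The share of all genes called in that fit was not counted. With DESeq2, members lower with leflunomide were 2, and 2 and 1 members differed between Mff and Drp1 and between Mff and Fis1 (225 and 399 of all genes did). The serial runs share only a number: deviations from the group means in the same run had a median correlation of 0.098 and a lowest of -0.12 over 63 pairs in the knockout arm (different runs: median -0.042) and a median of 0.20 and a lowest of -0.00049 over 3 pairs in the drug arm (different runs: median -0.086), and the replicate block moved no other of the 28 counts by over 1.5 times.

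Leaving out 1 library at a time gave 3 to 5 members higher in both Fis1 clones, 4 to 8 higher and 1 to 3 lower in both Mff clones, 5 to 9 lower in gs1_C8, 0 to 1 higher and 0 to 1 lower in all 6 clones, 1 to 3 opposite calls in the Drp1 and 0 to 2 in the Fis1 clones, and 0 to 2 higher and 0 to 2 lower with leflunomide. Members that differed between the clones of a pair were 14 to 18 in Drp1, 22 to 25 in Fis1 and 24 to 27 in Mff. The one reversed value was Itgb3 in gs1_C8, at -0.10 without parental replicate 1 and -0.26 without gs1_C8 replicate 2, with 0.29 without parental replicate 2 as the highest. The causes were not tested. Depth limits Tns1, Lpxn and, in parental cells, Itgb3, and 3 libraries per group and 2 clones per genotype limit the precision of the rest.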
